A study of Mus musculus and Rattus norvegicus with 30 samples.

Results

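Purinergic receptors carry the signal of ATP and other nucleotides that cells release, and 10 of them were followed here in dorsal root ganglia (DRG) of mouse and rat, out of 54315 features in the mouse count table and 39281 in the rat table. The members were P2rx2, P2rx3, P2rx4, P2rx5, P2rx6, P2rx7, P2ry1, P2ry2, P2ry12 and P2ry14, found by their gene symbol in the deposited tables. P2X receptors (P2rx genes) are cation channels that open when extracellular ATP binds, and P2Y receptors (P2ry genes) are G protein-coupled receptors for ATP, ADP, UTP or UDP-sugars. In the DRG, P2X3, alone or together with P2X2, is best known from small nociceptive neurons, whereas P2X4, P2X7, P2Y12 and P2Y14 are known from satellite glia, macrophages and microglia. From this background P2rx2, P2rx3, P2rx5, P2rx6 and P2ry1 were grouped as neuronal, P2rx4, P2rx7, P2ry12 and P2ry14 as glial and immune, and P2ry2 as belonging to both.

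Total RNA depleted of ribosomal RNA was sequenced from L3 and L4 DRG of adult mice of the strains BALB/c and B10.D2, both sexes, 28 days after spared nerve injury (SNI), in which the common peroneal and sural nerves are cut and the tibial nerve is left intact, or after sham surgery. Each mouse library came from 1 animal, with 6 sham and 4 SNI animals of BALB/c and 5 of each of B10.D2. Polyadenylated RNA was sequenced from L5 DRG of adult male Wistar rats 21 days after L5 spinal nerve transection (SNT) or sham surgery, with 4 libraries per group and 3 animals pooled in each. No group carried a transgene, and the ganglia were whole, so that fewer cells of a type and less RNA per cell cannot be told apart in any value below; L3 and L4 ganglia also hold neurons whose axons SNI leaves intact. Numbers of mouse libraries are those of their titles, and rat libraries are numbered 1 to 4.

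Library totals ran from 29989963 to 41881331 counts in mouse and from 11954612 to 17887909 in rat. In mouse each receptor had at least 87 counts in every library. Levels are given in CPM, the count per 1000000 counts of the library total scaled by the TMM factor. A feature was called when its adjusted p in edgeR's quasi-likelihood test, taken over all features tested, was under 0.05. The injury genes fixed as a check of the labels, were called higher after SNI for 10 of 10 in BALB/c and 9 of 10 in B10.D2, and after SNT for 6 of the 6 that were tested. Single libraries stood apart in the summed level of these genes. B10.D2 SNI library 76 was at 358 CPM, against 563 to 639 in the other SNI libraries and 239 to 290 in sham of that strain. Rat sham library 4 was at 753 CPM, against 298 to 337 in the other sham libraries and 1016 to 1487 after SNT. Neuronal markers were at 5582 to 6635 summed CPM over all mouse libraries, and counts were present for each marker of neurons, satellite glia and macrophages. In rat, a pair of libraries, sham 4 and SNT 1, stood between the 2 groups, at -7.15 and 0.78 on a first principal component on which the other sham libraries were at -51.8 to -38.3 and the other SNT libraries at 32.9 to 53.6. Rat values are therefore also given without this pair. Since the pair was picked on the component that separates sham from SNT, leaving it out widens the contrast (6100 features called, against 3753), and calls gained without it are given as values, not as support.

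Of the 10 receptors, 5 were listed at 0 in all 8 rat libraries: P2rx2, P2rx4, P2rx5, P2rx6 and P2rx7. The rat table was at 0 for whole neighbourhoods around them. By the mouse map, all 28 genes within 1000000 bases of P2rx4 that had at least 5 CPM in mouse and a symbol in both tables were also listed at 0, as were all 19 around P2rx2, 18 around P2rx5, 33 around P2rx6 and 27 around P2rx7. None of the genes around the 5 counted receptors was at 0, against 37.4% of the 10621 such genes in all. These zeros are given as listed, and no rat level or change is drawn from them. The rat library totals hold no counts for the genes listed at 0, so rat CPM is not compared with mouse CPM.

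Per kilobase of exon, P2rx3 was the most abundant of the 10 receptors in mouse DRG and P2ry14 the least (merged exon lengths from the GENCODE M21 annotation of GRCm38). The last place depends on this length, which was 11059 bases for P2ry14 and 2574 for P2rx2. In plain CPM, P2rx2 was below P2ry14 in BALB/c sham (3.40 and 4.09), BALB/c SNI (3.74 and 6.08) and B10.D2 SNI (4.74 and 5.47). In B10.D2 sham P2ry14 was below P2rx2, at 3.18 and 3.52 CPM. In BALB/c sham libraries P2rx3 was at 34.2 ± 3.49 CPM per kilobase (SD, n = 6), which was 44.9% of the summed level of the 10 receptors. P2ry1, the ADP receptor coupled to Gq, followed at 15.1 ± 1.35 and held 19.8%. Ranges of both stood clear of each other and of the other receptors in all 4 mouse groups. A middle set of 5 receptors came next in BALB/c sham: P2rx5 at 5.56 ± 0.596, P2rx6 at 5.39 ± 0.597, P2rx7 at 4.37 ± 0.543, P2rx4 at 4.21 ± 0.102 and P2ry2 at 3.70 ± 0.202. Neighbours in that order overlapped in range from P2rx5 down to P2rx4, and P2rx4 and P2ry2 did not overlap. P2ry12, the ADP receptor that marks microglia, was at 1.95 ± 0.235, P2rx2 at 1.32 ± 0.165 and P2ry14 at 0.369 ± 0.0576 CPM per kilobase, with no overlap between neighbours. B10.D2 sham libraries gave the same order except that P2rx6, at 7.36 ± 0.701 CPM per kilobase (SD, n = 5), stood before P2rx5 at 5.48 ± 1.02, with overlapping ranges. After SNI, P2rx7 took the place behind P2ry1 in both strains, at 5.39 ± 0.290 (SD, n = 4) in BALB/c and 5.30 ± 0.545 (SD, n = 5) in B10.D2, where its range overlapped that of P2rx6 at 5.17 ± 0.623.

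**Figure D1:**
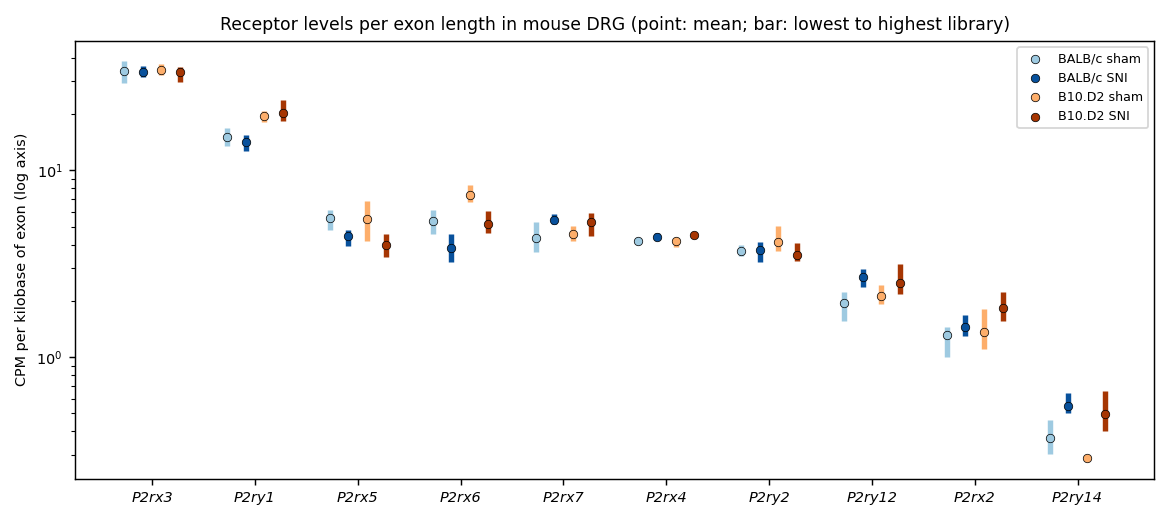
Levels of the 10 receptors per kilobase of merged exon length in mouse DRG, on a log axis. Points are group means and bars run from the lowest to the highest library (n = 6, 4, 5 and 5). P2rx3 and P2ry1 stand above the rest in each group, and P2ry14 is lowest by this measure.

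After SNI, 4 of the 10 receptors passed the test in BALB/c (3 higher, 1 lower), where 9.69% of all 24685 features tested were called. In B10.D2, 3 of the 10 were called, 1 higher and 2 lower, against 4.58% of all features. P2ry14 rose and P2rx6 fell in both strains. The median log2 fold change after SNI (log2 change, SNI over sham, of the same fit) over the 10 receptors was 0.042 in BALB/c and 0.077 in B10.D2, beside 0.003 and 0.008 over all features. By group, 1 of 5 neuronal receptors passed in BALB/c and 2 of 5 in B10.D2, all lower, and 3 of 4 glial and immune receptors passed in BALB/c and 1 of 4 in B10.D2, all higher.

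**Figure D2:**
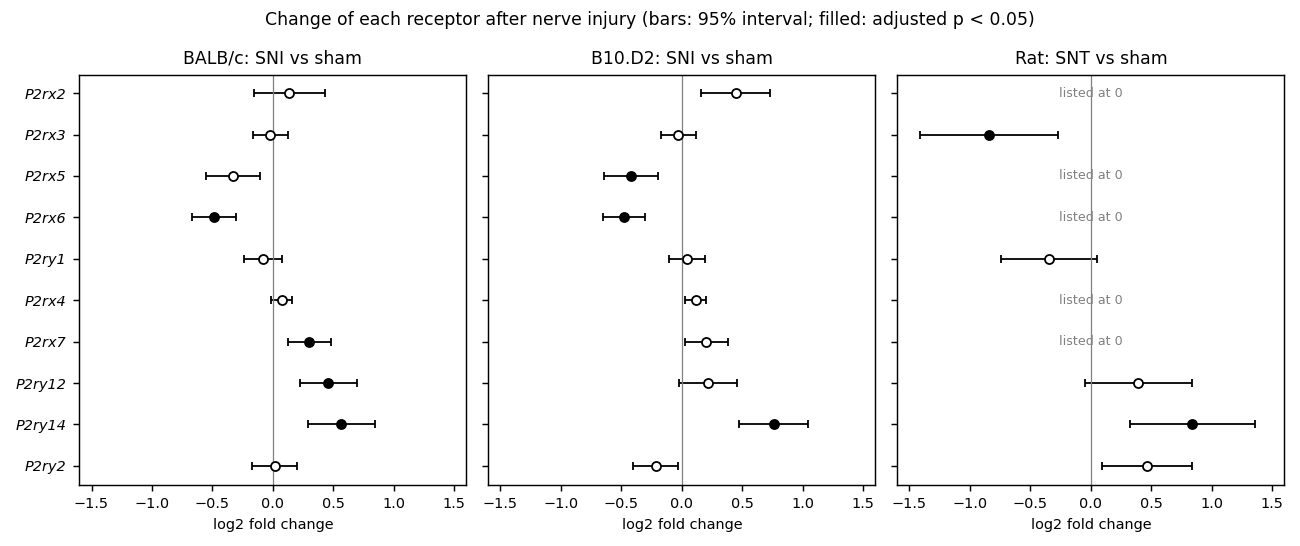
Log2 fold change of each receptor after injury in BALB/c, B10.D2 and rat, with its 95% interval from the edgeR fit. Filled points passed an adjusted p of 0.05. In mouse P2ry14 lies to the right and P2rx6 to the left of 0 in both strains, while P2rx3 lies at 0 in mouse and to the left in rat.

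P2rx3 encodes the channel subunit through which ATP excites nociceptors, and its level did not pass the test after SNI in either strain. In BALB/c sham it was at 81.9 CPM in the lowest library, 96.1 at the median and 108 in the highest, and the SNI libraries were at 88.4, 90.4, 97.0 and 100 CPM. B10.D2 sham libraries were at 89.9, 93.0, 94.0, 99.9 and 104 CPM, and SNI libraries at 82.5, 92.7, 97.3, 99.2 and 99.3 CPM. All 4 ranges overlapped. The fitted log2 change was -0.02 ± 0.0703 (SE; 95% interval -0.17 to 0.13; edgeR adjusted p = 0.899) in BALB/c and -0.03 ± 0.0694 (SE; 95% interval -0.18 to 0.11; edgeR adjusted p = 0.881) in B10.D2, so that a fall of the size measured in rat lay outside both intervals. Mouse and rat also differed in injury, ganglia, day, RNA fraction and sexes, so this is not a comparison of species. Markers of the non-peptidergic nociceptors that carry P2X3, such as Mrgprd, Gfra2 and Scn11a, were called for 0 of 7 genes in each strain. Mrgprd came nearest in BALB/c, at -0.21 ± 0.0661 (SE; 95% interval -0.35 to -0.07; edgeR adjusted p = 0.051). In B10.D2 it was at -0.09 ± 0.0655 (SE, edgeR adjusted p = 0.5175). Ssrp1, whose start overlaps that of P2rx3 on the opposite strand, had log2 changes of 0.03 (edgeR adjusted p = 0.747) and 0.02 (edgeR adjusted p = 0.863).

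P2rx2, the partner subunit of P2X3, did not pass the test in either strain. Libraries of B10.D2 sham were at 2.85, 3.32, 3.36, 3.38 and 4.68 CPM and those of SNI at 4.02, 4.22, 4.26, 5.44 and 5.75 CPM, with only sham library 88 inside the SNI range. Its log2 change there was 0.44 ± 0.138 (SE, edgeR adjusted p = 0.0745), and it was called without sham library 88 (adjusted p = 0.0169), without BALB/c sham library 50 (0.04475) and in DESeq2 (0.0389). These were 2 of the 20 fits that left out 1 library, with adjusted p up to 0.208, and 1 of 6 other settings. Leaving out library 88, the sham library inside the SNI range, widens the contrast, so the call gained is given as a value, not as support. In BALB/c the 4 SNI libraries were at 3.34 to 4.34 CPM, against 2.59 to 3.74 in sham, and the log2 change was 0.13 ± 0.141 (SE, edgeR adjusted p = 0.627).

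P2rx6, a P2X subunit that forms channels mainly in company with other subunits, fell after SNI in both strains. BALB/c sham libraries ran from 18.2 CPM over a median of 22.2 to 24.5, and SNI libraries were at 12.99, 14.8, 15.5 and 18.3 CPM. Only SNI library 49 lay inside the sham range, just above the lowest sham library. In B10.D2 the sham libraries were at 27.0, 27.1, 28.5, 31.0 and 33.5 CPM and the SNI libraries at 18.4, 19.1, 19.2, 22.4 and 24.1 CPM, with no overlap. The log2 change was -0.49 ± 0.087 (SE, edgeR adjusted p = 0.000741) in BALB/c and -0.48 ± 0.0835 (SE, edgeR adjusted p = 0.00135) in B10.D2, or 0.712 and 0.718 times the sham level. P2rx6 stayed called in each of 20 fits that left out 1 mouse library. The end of P2rx6 overlaps Slc7a4, which runs on the opposite strand. BALB/c sham libraries held Slc7a4 at 14.4 ± 1.26 CPM (SD, n = 6) and SNI libraries at 13.1 ± 0.814 (SD, n = 4), a log2 change of -0.14 ± 0.0696 (SE, edgeR adjusted p = 0.242).

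P2rx5 gave values below sham in both strains and was called in B10.D2. The B10.D2 sham libraries were at 10.005, 11.9, 12.8, 14.4 and 16.5 CPM and the SNI libraries at 8.19, 8.51, 10.03, 10.2 and 10.9 CPM, so that sham library 77 lay among the SNI libraries. It had a log2 change of -0.42 ± 0.108 (SE, edgeR adjusted p = 0.0267), and the call was lost without sham library 58, 60 or 67 or SNI library 69, 76 or 89 (adjusted p 0.0558 to 0.0833) and in the fit of B10.D2 alone (0.0590). In BALB/c the sham libraries spanned 11.5 to 14.7 CPM with a median of 13.7, and the SNI libraries were at 9.41, 10.4, 11.3 and 11.5 CPM. Here the log2 change of -0.33 ± 0.109 (SE, edgeR adjusted p = 0.0608) did not pass, and it did in DESeq2 (adjusted p = 0.0301), without the filter on low counts (0.0426) and without B10.D2 sham library 58, BALB/c sham library 71 or B10.D2 sham library 77 (0.0267 to 0.0451).

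P2ry1 was the neuronal receptor next to P2rx3 in level, and its log2 change was -0.08 ± 0.0745 (SE, edgeR adjusted p = 0.555) in BALB/c and 0.04 ± 0.0729 (SE, edgeR adjusted p = 0.840) in B10.D2. Libraries ran from 57.7 to 72.5 CPM in BALB/c sham, with a median of 64.7, and were at 54.6, 60.7, 62.5 and 66.7 CPM after SNI. Its values differed between strains, as given further on.

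**Figure D3:**
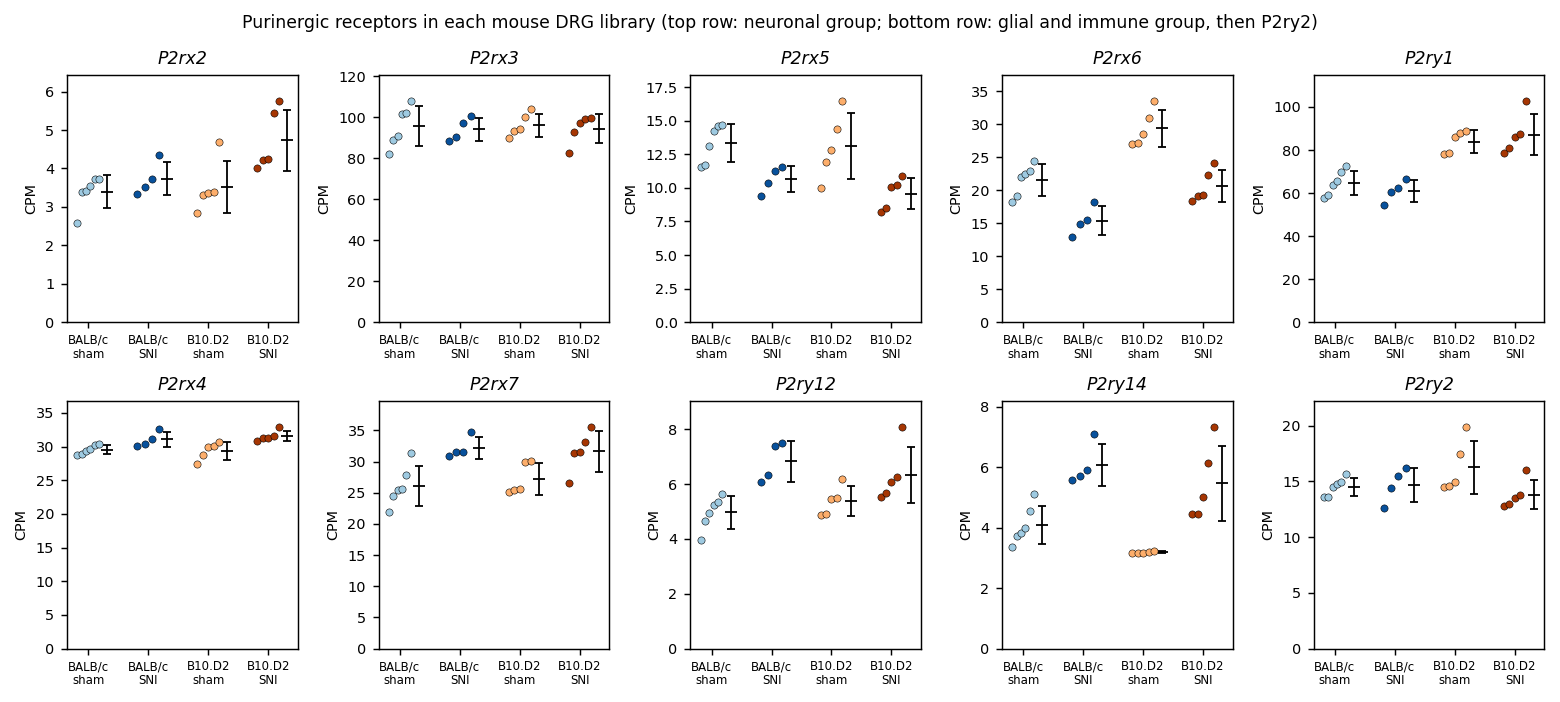
CPM of each receptor in every mouse library, sorted by value within a group, with the mean and SD beside the points (n = 6, 4, 5 and 5). P2rx6 lies lower and P2ry14 higher after SNI in both strains, P2rx3 is level over the 4 groups, and P2ry1 and P2rx6 are higher in B10.D2.

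P2ry14, the receptor for UDP-glucose and related UDP-sugars, rose most of the 10 receptors in both mouse strains. BALB/c sham libraries ran from 3.34 CPM over a median of 3.91 to 5.11, and the SNI libraries were at 5.59, 5.71, 5.91 and 7.10 CPM. The B10.D2 sham libraries were at 3.16, 3.16, 3.17, 3.19 and 3.23 CPM and the SNI libraries at 4.44, 4.44, 5.01, 6.13 and 7.31 CPM. Sham and SNI did not overlap in either strain. The log2 change was 0.57 ± 0.133 (SE, edgeR adjusted p = 0.00819) in BALB/c, a rise of 1.48 times, and 0.76 ± 0.136 (SE, edgeR adjusted p = 0.0017) in B10.D2, a rise of 1.69 times. In BALB/c the call was lost without SNI library 64, the highest (adjusted p = 0.0515), and it held in the other 19 such fits. The B10.D2 sham values rest on 105 to 131 counts each, and counting alone gives an SD of 0.276 to 0.309 CPM, more than the SD of 0.0316 CPM between the 5 libraries.

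P2ry12 and P2rx7 rose in BALB/c. For P2ry12 the sham libraries spanned 3.96 to 5.65 CPM with a median of 5.08, and the SNI libraries were at 6.06, 6.33, 7.40 and 7.51 CPM, with no overlap. Its log2 change was 0.46 ± 0.114 (SE, edgeR adjusted p = 0.0128), and the call was lost without SNI library 64 (adjusted p = 0.0549) or 70 (0.0613). In B10.D2 P2ry12 was at 4.88, 4.90, 5.44, 5.48 and 6.19 CPM in sham and 5.54, 5.66, 6.07, 6.25 and 8.07 CPM after SNI, and the log2 change of 0.22 ± 0.114 (SE, edgeR adjusted p = 0.3605) did not pass.

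P2rx7, the channel whose opening by high ATP drives release of interleukin-1β from macrophages, was at 21.8 to 31.4 CPM in BALB/c sham with a median of 25.5 and at 31.0, 31.5, 31.6 and 34.8 CPM after SNI. Only sham library 51 reached the SNI range. Its log2 change was 0.30 ± 0.0849 (SE, edgeR adjusted p = 0.0271). This call was lost without sham library 56, 57 or 71 or SNI library 49, 64, 65 or 70 (adjusted p 0.0532 to 0.110) and in the fit of BALB/c alone (0.0592). B10.D2 libraries were at 25.1, 25.5, 25.6, 29.9 and 30.0 CPM in sham and 26.6, 31.4, 31.6, 33.2 and 35.5 CPM after SNI, a log2 change of 0.20 ± 0.0842 (SE, edgeR adjusted p = 0.2095).

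P2rx4, whose induction in spinal microglia is a known feature of neuropathic pain models, had the smallest SE of the 10 receptors. Its level was 29.6 ± 0.715 CPM (SD, n = 6) in BALB/c sham and 31.1 ± 1.08 (SD, n = 4) after SNI, a log2 change of 0.07 ± 0.0402 (SE; 95% interval -0.01 to 0.16; edgeR adjusted p = 0.301). B10.D2 sham libraries were at 27.4, 28.7, 29.9, 30.1 and 30.7 CPM and SNI libraries at 30.9, 31.3, 31.3, 31.6 and 32.9 CPM. The groups did not overlap, and the log2 change of 0.11 ± 0.0398 (SE; 95% interval 0.03 to 0.20; edgeR adjusted p = 0.127) did not pass. P2ry2, the ATP and UTP receptor of neurons and glia, had 14.5 ± 0.794 CPM (SD, n = 6) in BALB/c sham and 14.7 ± 1.56 (SD, n = 4) after SNI. In B10.D2 it was at 16.3 ± 2.35 (SD, n = 5) and 13.8 ± 1.29 (SD, n = 5), with a log2 change of -0.22 ± 0.09 (SE, edgeR adjusted p = 0.207).

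Markers of immune and glial cells were read beside these receptors. The summed level of the 10 macrophage and microglia markers was 67.9 to 166 CPM in BALB/c sham and 134 to 213 CPM after SNI, and 3 of the 10 (Cd68, Csf1r and Cx3cr1) were called higher. In B10.D2 it was 144 to 162 CPM in sham and 155 to 273 CPM after SNI, with 0 of 10 called. The B10.D2 SNI library with the highest marker sum, library 69, also had the highest P2ry12, P2ry14, P2rx7 and P2rx4 of its group. Other groups did not follow this order. In BALB/c sham, library 51 had the lowest marker sum but the highest P2rx7 and P2ry14. In BALB/c SNI, library 65 had the highest marker sum and the highest P2rx7, but the lowest P2rx4. The 6 myelin markers summed to 4564 CPM in BALB/c sham library 51, against 1886 to 3504 in the other sham libraries of that strain. The 7 satellite glial markers summed to 930 to 1029 CPM in BALB/c sham and 1022 to 1173 after SNI, and to 927 to 1008 and 921 to 1076 CPM in B10.D2, with Cdh19 called higher in both strains. The 5 further lists were called as follows: myelin markers for 0 of 6 in each strain, neuronal markers for Snap25 alone, lower in both, fibroblast markers for Lum alone, higher in both, non-peptidergic nociceptor markers for none, and blood genes for 0 of the 3 tested. What part the marker levels have in the receptor changes was not tested.

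P2ry12 and P2ry14 lie together on mouse chromosome 3, both within Med12l, which runs on the opposite strand. P2ry14 spans 3:59113855-59153618 and P2ry12 spans 3:59216272-59262871 on the minus strand (GRCm38). Med12l had a level of 101 ± 7.38 CPM (SD, n = 6) for BALB/c sham and 92.3 ± 8.22 (SD, n = 4) after SNI, and its log2 change of -0.13 ± 0.065 (SE, edgeR adjusted p = 0.249) had the sign opposite to that of both receptors. In B10.D2 the Med12l value was -0.10 ± 0.0641 (SE, edgeR adjusted p = 0.467). The libraries were made to keep the strand. P2rx7 (5:122643911-122691432, plus strand) and P2rx4 (5:122707544-122729738, plus strand) are also neighbours, on chromosome 5, and P2rx6 spans 16:17561885-17577800 on the plus strand.

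The 250 bases before annotated starts of receptors called after SNI are shown to let their sequence be compared (RefSeq, GRCm38.p6, each written along the gene's strand). P2rx7 start 2 and P2ry14 starts 3 and 4 held no match to the motifs below and are not shown. The reference strain is C57BL/6J, so the letters are those of neither strain studied. Starts were held for 7 of the 10 receptors, 12 starts in all, and not for P2rx2, P2rx3 and P2rx5. Capitals mark matches on either strand to TGANTCA (AP-1 letters, with any base at N), TGACGTCA (the CRE), GAGGAAG (a PU.1 core) and GGGCGG (the GC box).
P2ry14 start 1, chr3:59153493-59153742 (minus strand): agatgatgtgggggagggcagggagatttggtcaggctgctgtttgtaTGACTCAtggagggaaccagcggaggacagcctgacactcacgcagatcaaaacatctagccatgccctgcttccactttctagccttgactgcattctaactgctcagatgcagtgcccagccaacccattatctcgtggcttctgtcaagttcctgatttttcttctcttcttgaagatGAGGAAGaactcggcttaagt
P2ry14 start 2, chr3:59131329-59131578 (minus strand): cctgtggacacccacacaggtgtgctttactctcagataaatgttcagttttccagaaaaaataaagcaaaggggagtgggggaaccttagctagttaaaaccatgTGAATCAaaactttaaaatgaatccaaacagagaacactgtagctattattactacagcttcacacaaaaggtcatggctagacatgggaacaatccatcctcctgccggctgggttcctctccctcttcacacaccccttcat
P2ry12, chr3:59262986-59263235 (minus strand): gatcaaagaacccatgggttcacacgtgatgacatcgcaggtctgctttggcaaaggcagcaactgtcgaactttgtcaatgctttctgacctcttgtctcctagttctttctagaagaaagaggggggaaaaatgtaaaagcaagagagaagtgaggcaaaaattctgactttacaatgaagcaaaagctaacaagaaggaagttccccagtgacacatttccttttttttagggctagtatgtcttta
P2rx7 start 1, chr5:122643677-122643926 (plus strand): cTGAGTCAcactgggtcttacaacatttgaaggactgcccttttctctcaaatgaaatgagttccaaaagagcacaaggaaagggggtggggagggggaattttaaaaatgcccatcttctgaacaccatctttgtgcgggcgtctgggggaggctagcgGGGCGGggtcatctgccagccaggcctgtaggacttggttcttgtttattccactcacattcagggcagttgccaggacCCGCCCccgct
P2rx6, chr16:17561635-17561884 (plus strand): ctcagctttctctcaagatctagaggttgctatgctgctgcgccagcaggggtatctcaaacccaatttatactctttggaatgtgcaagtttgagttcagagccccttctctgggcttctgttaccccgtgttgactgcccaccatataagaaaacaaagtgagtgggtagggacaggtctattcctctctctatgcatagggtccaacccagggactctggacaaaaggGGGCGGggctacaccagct
Among the 12 starts, the AP-1 letters were found in 3, which were start 1 of P2rx7 and starts 1 and 2 of the 4 of P2ry14, and 6.75% of all 32851 promoter windows of this length hold them. P2ry14 start 1 also held the PU.1 core, 21 to 15 bases before the start, as 10.6% of all windows do. The GC box, found in 32.7% of all windows, was present before P2rx6, P2rx7 start 1, P2ry1 and both starts of P2ry2. The window of P2ry12 held none of the 4 motifs, and the CRE, present in 1.55% of all windows, was in none of the 12. These are matches of letters only and do not show binding.

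The change after SNI was compared between strains by the interaction term of the same fit, and 0 of the 10 receptors were called, where 0.0243% of all features were. At an unadjusted p under 0.05 there was likewise 0 of 10, and DESeq2 called 0. The differences of the log2 changes, B10.D2 minus BALB/c, lay between -0.24 ± 0.162 (SE) for P2ry12 and 0.31 ± 0.198 (SE) for P2rx2, each with edgeR adjusted p = 1. P2rx7, P2ry12 and P2rx5 were each called in a single strain, and their changes are not shown to differ between strains.

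Between strains, P2ry1 and P2rx6 were higher in B10.D2 than in BALB/c, in sham and after SNI, and the other 8 receptors were not called. In sham 21.6% of all features were called, and after SNI 20.8%, so that 2 of 10 is close to the background. P2ry1 was at 78.1, 78.6, 85.9, 87.8 and 89.03 CPM in B10.D2 sham, all above the highest BALB/c sham library at 72.5 CPM. After SNI it was at 78.6, 80.8, 86.1, 87.6 and 103 CPM in B10.D2, all above the highest BALB/c library at 66.7 CPM. The log2 difference was 0.38 ± 0.0693 (SE, edgeR adjusted p = 0.000301) in sham and 0.51 ± 0.0777 (SE, edgeR adjusted p = 4.86e-05) after SNI. For P2rx6 it was 0.43 ± 0.0793 (SE, edgeR adjusted p = 0.000358) in sham and 0.44 ± 0.0901 (SE, edgeR adjusted p = 0.00107) after SNI, with no overlap of the strains in either condition. P2ry14 values were lower in B10.D2 sham than in BALB/c sham without overlap, and the log2 difference of -0.36 ± 0.13 (SE, edgeR adjusted p = 0.0564) did not pass. It was called without BALB/c sham library 57, B10.D2 SNI library 69 or B10.D2 SNI library 76 (adjusted p 0.0245 to 0.0463). Of the macrophage and microglia markers, 6 of 10 were called higher in B10.D2 sham, at summed levels of 144 to 162 CPM against 67.9 to 166 in BALB/c sham, and their part in the strain differences was not tested.

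Between female and male mice 0 of the 10 receptors were called by edgeR or DESeq2, where 0.243% of all features were called by edgeR. At an unadjusted p under 0.05 there was 1 of 10, P2rx6, with a log2 difference, female minus male, of -0.18 ± 0.0595 (SE, edgeR adjusted p = 0.226). The P2rx6 means of females and males were 18.9 and 23.3 CPM in B10.D2 SNI (n = 3 and 2) and 21.6 and 21.5 CPM in BALB/c sham (n = 3 and 3).

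In rat, P2rx3 fell and P2ry14 rose after SNT, and 2 of the 5 counted receptors were called, against 27.4% of the 13690 features tested. The median log2 change over the 5 was 0.392, beside 0.003 over all features. P2rx3 was at 509, 560, 576 and 701 CPM in sham and 185, 265, 406 and 454 CPM after SNT, with no overlap. Its log2 change was -0.84 ± 0.255 (SE; 95% interval -1.41 to -0.27; edgeR adjusted p = 0.0363), or 0.558 times the sham level. P2ry14 was at 2.99, 3.63, 4.76 and 5.47 CPM in sham and 5.64, 6.95, 8.39 and 9.04 CPM after SNT, without overlap, and its log2 change was 0.84 ± 0.232 (SE, edgeR adjusted p = 0.0264), or 1.79 times.

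These calls were not held in all fits that left out 1 rat library. P2rx3 was not called without sham library 1, 2 or 3 or SNT library 2, 3 or 4 (adjusted p 0.0506 to 0.101), and P2ry14 was not called without sham library 2 or 3 or SNT library 2 or 3 (0.0607 to 0.0798). Both kept their sign in all 8 such fits, with log2 changes of -1.04 to -0.63 for P2rx3 and 0.72 to 1.01 for P2ry14. Neither was called in a fit with a block on the number that the titles of 1 sham and 1 SNT library share. There the edgeR adjusted p was 0.0618 for P2rx3 and 0.0755 for P2ry14. Without sham library 4 and SNT library 1, the pair that lay between the groups, P2rx3 had a log2 change of -1.10 (adjusted p = 0.00659) and P2ry14 one of 0.95 (adjusted p = 0.01806).

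The other 3 counted receptors did not pass over all 8 libraries. P2ry1 was at 27.6, 35.8, 41.5 and 42.8 CPM in sham and 22.2, 27.1, 31.5 and 35.3 CPM after SNT, and its log2 change was -0.35 ± 0.177 (SE, edgeR adjusted p = 0.162). P2ry2 was at 16.5, 16.7, 20.6 and 21.1 CPM in sham and 20.6, 22.5, 27.6 and 32.7 CPM after SNT, a log2 change of 0.47 ± 0.166 (SE, edgeR adjusted p = 0.0617). P2ry12 was at 7.08, 11.8, 12.8 and 13.03 CPM in sham and 12.5, 14.2, 15.0 and 16.9 CPM after SNT, a log2 change of 0.39 ± 0.2 (SE, edgeR adjusted p = 0.161). Without sham library 4 and SNT library 1, a choice that widens the contrast, the values were -0.56 for P2ry1 (adjusted p = 0.0127), 0.51 for P2ry2 (0.0327) and 0.55 for P2ry12 (0.0635). P2ry2 was also called without SNT library 1 alone (adjusted p = 0.0224).

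**Figure D4:**
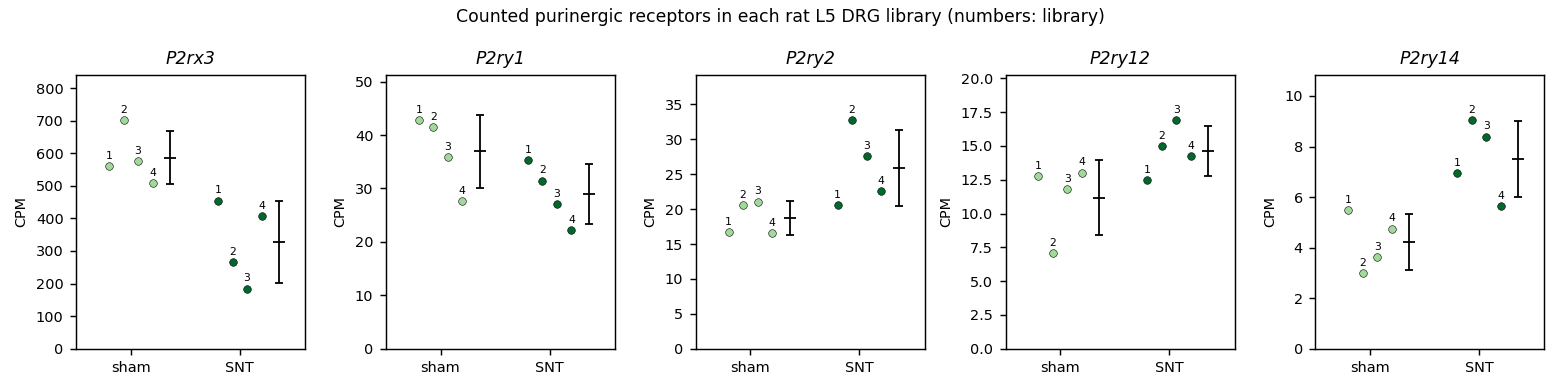
CPM of the 5 counted receptors in every rat library, with library numbers above the points and the mean and SD beside them (n = 4 per group). P2rx3 is lower and P2ry14 higher after SNT without overlap, and the other 3 receptors overlap.

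Marker genes were also read in rat, where 27.4% of all features tested were called. Of the non-peptidergic nociceptor markers, 3 of the 5 tested were called lower (Mrgprd, Scn11a and Plxnc1), and the summed level of the list was 939 to 1582 CPM in sham and 401 to 848 CPM after SNT. The macrophage list, of which 5 of 10 genes were listed at 0 or had no row, summed to 113 to 460 CPM in sham and 387 to 574 CPM after SNT. Sham library 4 held the highest sham sum. Of the 5 macrophage genes tested, 1 was called higher (Cx3cr1). Other lists held single calls or few: neurons 1 of 2 lower (Elavl4), satellite glia 1 higher (Sox10) and 1 lower (Slc1a3) of 3, myelin 1 of 3 higher (Mag), fibroblasts 1 of 2 higher (Lum) and blood 1 of 1 lower (Alas2). Their part in the receptor changes was not tested.

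Neuronal receptors were read against glial and immune receptors as the log2 ratio of their summed CPM in each library, without a test. In BALB/c the ratio was 1.62 ± 0.142 (SD, n = 6) in sham and 1.28 ± 0.0491 (SD, n = 4) after SNI, and all SNI libraries, at 1.23 to 1.34, lay below all sham libraries, at 1.45 to 1.76. The neuronal sum went from 198 to 185 CPM and the glial and immune sum from 64.7 to 76.2 CPM. In B10.D2 the ratio was 1.80 ± 0.0741 (SD, n = 5) in sham and 1.53 ± 0.195 (SD, n = 5) after SNI, and SNI library 89, at 1.74, lay within the sham range of 1.68 to 1.87. The lowest, at 1.22, was SNI library 69. In rat, where the ratio holds only P2rx3 and P2ry1 over P2ry12 and P2ry14, it was 5.37 ± 0.581 (SD, n = 4) in sham and 3.94 ± 0.735 (SD, n = 4) after SNT, at 4.91 to 6.21 and 3.07 to 4.66 without overlap. P2rx3 gave most of the rat neuronal sum, which went from 624 to 357 CPM.

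**Figure D5:**
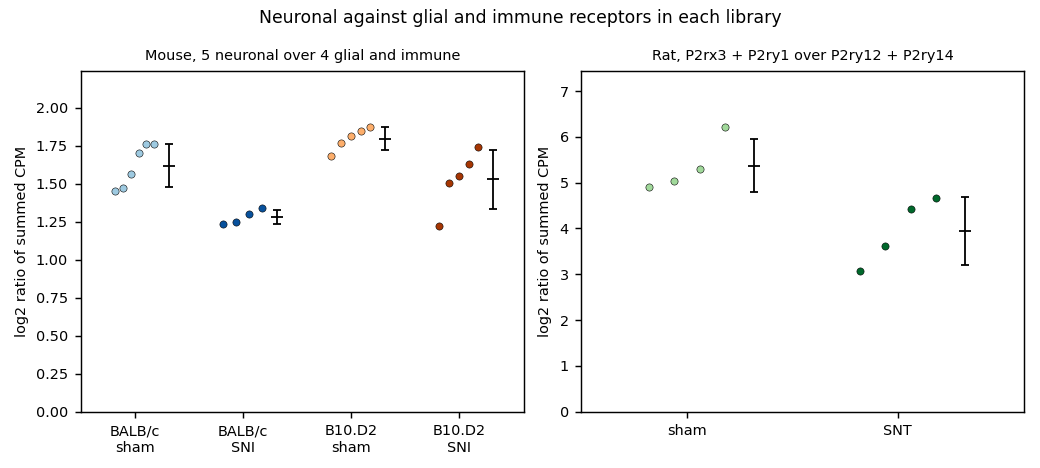
Log2 ratio of the summed CPM of neuronal over glial and immune receptors in each library, sorted by value, with the mean and SD. Both axes start at 0, and the rat panel holds 4 receptors only. The ratio is lower after injury, without overlap in BALB/c and rat and with overlap in B10.D2.

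The rest of the pathway, 29 genes for other P2 receptors, adenosine receptors, extracellular nucleotide enzymes and ATP release or nucleoside transport, was read by its counts. After SNI 2 rose and 1 fell of the 24 tested in BALB/c, where 9.69% of all features were called, and 1 rose of 24 in B10.D2, where 4.58% were, so that both counts are near the background. Entpd2, the ectonucleotidase of satellite and Schwann cells that turns ATP into ADP, rose in both strains, from 15.6 ± 1.22 CPM (SD, n = 6) to 28.8 ± 3.76 (SD, n = 4) in BALB/c and from 19.6 ± 3.28 (SD, n = 5) to 29.3 ± 4.99 (SD, n = 5) in B10.D2. Its log2 change was 0.88 ± 0.114 (SE, edgeR adjusted p = 2.78e-05) and 0.61 ± 0.114 (SE, edgeR adjusted p = 0.00268). P2ry13, an ADP receptor of immune cells that lies beside P2ry12 and P2ry14, rose in BALB/c by 1.03 ± 0.221 (SE, edgeR adjusted p = 0.00425) on the log2 scale, from 0.777 to 2.10 CPM in sham to 1.98 to 2.78 CPM after SNI. In B10.D2 it was at 0.978 to 1.87 CPM in sham and 2.30 to 3.10 CPM after SNI, without overlap, and the log2 change of 0.75 ± 0.218 (SE, edgeR adjusted p = 0.0536) did not pass. Entpd3, the ectonucleotidase of nociceptors, fell by 0.33 ± 0.047 (SE, edgeR adjusted p = 7.29e-05) on the log2 scale in BALB/c, from 117 ± 6.78 CPM (SD, n = 6) to 93.2 ± 2.95 (SD, n = 4). In B10.D2 Entpd3 was at 115.6 to 119.9 CPM in sham and 98.7 to 114.5 CPM after SNI, without overlap. The log2 change of -0.16 ± 0.046 (SE, edgeR adjusted p = 0.0548) did not pass. Adenosine receptors and release and transport genes held no call after SNI, with 3 of 4 and 6 of 8 tested. Between strains in sham 4 of the 24 pathway genes were higher and 3 lower in B10.D2, against 21.6% of all features called.

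In rat 5 pathway genes rose and 4 fell of the 18 tested, where 27.4% of all features were called, and the 4 adenosine receptors were listed at 0. Entpd2 rose from 150 ± 38.6 CPM (SD, n = 4) to 361 ± 102 (SD, n = 4), a log2 change of 1.27 ± 0.242 (SE, edgeR adjusted p = 0.0114). The receptors P2ry6, for UDP, P2ry10 and P2ry13 rose by 1.17 ± 0.29, 0.92 ± 0.267 and 1.15 ± 0.302 (SE) on the log2 scale (edgeR adjusted p = 0.0188, 0.0308 and 0.0225). Panx1, a channel through which cells release ATP, rose by 1.16 ± 0.243 (SE, edgeR adjusted p = 0.013). Among the falls were Entpd3, by 1.94 ± 0.429 (SE, edgeR adjusted p = 0.0142) on the log2 scale, and Acpp, the ectonucleotidase of non-peptidergic nociceptors, which fell by 1.77 ± 0.333 (SE, edgeR adjusted p = 0.0114), from 98.8 ± 29.2 CPM (SD, n = 4) to 29.0 ± 14.9 (SD, n = 4). The pannexin gene Panx2 and the nucleoside transporter Slc29a1 fell by 1.06 ± 0.308 and 0.87 ± 0.204 (SE) on the log2 scale (edgeR adjusted p = 0.0311 and 0.016).

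For each receptor the genes with the steadiest ratio to it over the 20 mouse libraries were listed from 15758 other annotated genes with a mean of at least 1 CPM in every group, with likeness given as the SD of the log2 ratio of CPM + 0.5. The closest gene to P2rx3 was Atp6v0d1 (SD 0.0723), followed by Vcp and Ap2b1 (0.0765 each). P2ry1 was followed most closely by Tmem106b (0.0733), Ccdc141 (0.0809) and Tpd52 (0.0827), and P2rx6 by Pcp4l1 (0.0915), B230312C02Rik (0.146) and Palm3 (0.151). For P2rx5 they were Nectin4 (0.107), Cabp1 (0.108) and Sema7a (0.120), and for P2rx2 Asl (0.153), Nppb (0.153) and Rspo2 (0.164). P2rx4 was followed by Crat (0.044), Actb (0.0451) and Xpo5 (0.0482). P2rx7 was followed by Plscr4 (0.0956), Sgce (0.096) and Dlg1 (0.0988), P2ry12 by Adam17 (0.125), Zfp704 (0.128) and Lhfpl2 (0.131), P2ry14 by Cd63 (0.168), Itpr1 (0.173) and Syne2 (0.176), and P2ry2 by Zswim6 (0.103), Grb14 (0.108) and Cerk (0.108). The measure shrinks with depth and with small changes, so it is not compared between receptors of different level.

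In mouse, 1 LncRNA assembled by the study lay within 5000 bases of a receptor gene; rat positions were not searched. LncRNA5452 (7:100985647-100995563, minus strand, GRCm38) begins 1005 bases past the end of P2ry2, on the same strand. Its level was 3.96 ± 0.461 CPM (SD, n = 6) in BALB/c sham and 4.04 ± 0.555 (SD, n = 4) after SNI, and at 4.80 ± 1.09 (SD, n = 5) and 4.10 ± 0.361 (SD, n = 5) in B10.D2. Its log2 change after SNI was 0.02 ± 0.125 (SE, edgeR adjusted p = 0.945) and -0.18 ± 0.123 (SE, edgeR adjusted p = 0.506), beside 0.01 and -0.22 for P2ry2. The study dropped predictions within a fixed distance of annotated genes, so the gap of 1005 bases is bounded by that rule. The paper also states that part of its assembled LncRNAs may be incomplete or untranslated regions not yet annotated. Whether LncRNA5452 is a transcript separate from P2ry2 was not tested.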

How the data were processed

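RNA was sequenced from mouse L3 and L4 DRG after SNI or sham surgery and from rat L5 DRG after SNT or sham surgery, and groups were taken from the labels. Of 30 samples, 28 had a column in the count tables, and B10.D2 sham sample 59 and BALB/c SNI sample 66 were not analysed here. From the methods and the submitters' processing notes, strand-specific paired-end reads were aligned with STAR to mm10 (GRCm38) or rn6 (Rnor_6.0), and the authors counted them with HTSeq over annotated genes and assembled LncRNAs. The deposited tables hold raw counts per feature. Tables with the authors' own DESeq2 fold changes and p-values gave symbols only. Positions came from the deposited annotation and from GENCODE M21.

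Counts were fitted with edgeR 4.0.16 in R 4.3.3 (TMM, filterByExpr, quasi-likelihood F test). The mouse model held sex, strain, surgery and strain by surgery over 20 libraries, the rat model surgery over 8. Tests were two-sided and adjusted p-values (Benjamini-Hochberg) were taken over 24685 features in mouse and 13690 in rat. The SE is the absolute log2 change over the square root of F. Scripts were tested on simulated data. Alternatives were DESeq2 1.42.0, RLE factors, other count filters, models without sex or within a strain, a replicate block in rat, and each library left out. Library totals were 29989963 to 41881331 counts in mouse and 11954612 to 17887909 in rat, and the SE holds both counting error and the spread between libraries. Receptors, lists and tests were chosen with earlier results of these data known. Named genes were all 10 receptors, pathway genes called after injury, the 3 genes with the steadiest ratio to each receptor, and assembled LncRNAs within 5000 bases. Genes that overlap a receptor and marker genes are named outside this rule, the called markers after their values were seen. Nothing in the labels ties rat libraries to separate surgeries, so p-values measure the spread between these samples. From the nociceptor list 1 gene was left out and is not reported here.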

Additional observations from a re-analysis of the deposited data

Results flagged for a closer look

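Highest or lowest libraries that stood apart from the rest of their group were found in 4 of 56 groups of receptor values and ratios, where chance gives about 1 in 20. P2rx2 was at 4.68 CPM in B10.D2 sham library 88, against 2.85 to 3.38 in the other sham libraries of that strain, and at 2.59 CPM in BALB/c sham library 50, against 3.38 to 3.74. P2rx7 was at 34.8 CPM in BALB/c SNI library 65, against 31.0 to 31.6 in the other SNI libraries. P2ry12 was at 8.07 CPM in B10.D2 SNI library 69, against 5.54 to 6.25. Without library 88 the P2rx2 change after SNI in B10.D2 was 0.56 on the log2 scale (edgeR adjusted p = 0.0169). Library 88 was picked here on its P2rx2 value, the highest of its group, so leaving it out widens this contrast.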

How the results depend on the processing

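Under DESeq2, RLE factors, no filter, a minimum of 10 counts in every library, the model without sex, each strain fitted alone and the sham libraries alone for sex, the counts of called receptors stayed within 1.5 times of those reported, and no receptor that was called changed sign in any alternative. With 1 library left out in turn, the number called after SNI was 1 to 5 in BALB/c and 2 to 4 in B10.D2, with 1 call (P2rx6) without BALB/c SNI library 64 and 2 without library 70. It was 0 to 3 after SNT in rat, 2 to 3 between strains in sham, 2 after SNI between strains, and 0 for the interaction and for sex. In rat, the fit with the replicate block, on the number that the titles of 1 sham and 1 SNT library share, called 1 receptor, P2ry2 (adjusted p = 0.0462), and neither P2rx3 (0.0618) nor P2ry14 (0.0755). Same-numbered rat libraries had correlations of deviations of -0.291 to 0.053, and 0 of 4 sham libraries correlated best with its own number, so the numbers were not taken to pair the samples. Without rat sham library 4 and SNT library 1, an alternative chosen after seeing the data on the component that separates the groups, 4 receptors were called. Over all features, the number called between sexes was 60, against 240 in DESeq2, 222 without a filter and 19 in sham libraries alone, after SNT in rat 3753, against 6100 without sham library 4 and SNT library 1 and 1483 without sham library 3, and for the interaction 6, against 10 in DESeq2 and 3 with at least 10 counts in every library. The ratio of neuronal to glial and immune receptors changed by -0.34 in BALB/c, -0.27 in B10.D2 and -1.42 in rat on the log2 scale, and by -0.35 to -0.30, -0.28 to -0.19 and -1.35 with P2ry2 added to either group or, in mouse, per kilobase. The lowest receptor counts were 49 for P2ry14 in rat and 87 for P2rx2 in mouse.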
